A study of Danio rerio with 24 samples.

Results

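The 2 clutches of zebrafish eggs described here were those of mother 2 (5 eggs) and mother 4 (5 eggs), 10 of the 24 eggs in the series. The pair was chosen because, in a linear model over all 24 eggs, it had the most transcripts that differed between 2 mothers. In that model 1356 transcripts (5.04% of those expressed) differed more than 2-fold with an adjusted p under 0.05 between mothers 2 and 4, the next pair, mothers 3 and 4, had 1314 (4.88%) and mothers 1 and 5, the lowest pair, had 356 (1.32%). Every difference between mother 2 and mother 4 given below is therefore a description, and the limit on the adjusted p of limma served only to pick transcripts. Tests are given for the eggs of mothers 1, 3 and 5 and for the reference channel of the arrays. The eggs of mothers 1, 3 and 5 did not enter the difference between mothers 2 and 4, although they entered the ranking of the pairs.

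All eggs were mature, unfertilized eggs squeezed from wild-type females of the ABTL strain, and the 5 females were sisters. Mother 1, mother 3 and mother 4 gave 5 eggs each, as did mother 2, and mother 5 gave 4. No egg was treated and no group carried a mutation. The RNA of each single egg, polyadenylated and depleted of ribosomal RNA, carried the Cy3 dye, and every array also received a pooled egg RNA in Cy5 as reference. Each mother is represented by 1 clutch, so a difference between mothers cannot be told apart from a difference between clutches, and the replicates are eggs of 1 female. The values are relative levels on each array, so they do not measure the amount of RNA in an egg. The study also recorded RNA yield and integrity for each egg, which were not used here.

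A mature fish egg carries RNA that its mother laid down while the oocyte grew, and this store directs the embryo until its own genome is switched on. During oogenesis the oocyte also builds the egg envelope, a coat of zona pellucida (ZP) proteins, and stocks ribosomes, mitochondria and the machinery that activates, stores and degrades the maternal messages. Some maternal RNAs code for signals that later pattern the embryo.

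Before normalization the arrays of mother 2 were dimmer and more uneven than those of mother 4. Over the 26917 transcripts called expressed, the mean raw log2 Cy3 signal was 8.52, 8.0, 9.77, 7.70 and 8.15 in eggs 1 to 5 of mother 2 and 9.37, 9.27, 8.87, 9.18 and 9.53 in eggs 1 to 5 of mother 4. Egg 3 of mother 2 was the brightest of the 10 and the other 4 eggs of mother 2 lay below every egg of mother 4. The mean raw log2 Cy5 signal of the same arrays overlapped, with 7.96 to 8.55 for mother 2 and 7.95 to 8.44 for mother 4. The levels below are the log2 values of the series table, in which the arrays were brought to 1 distribution. What part this difference in brightness had in the results was not tested beyond the other scalings.

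Nearly all egg markers were called expressed, by a rule over all arrays of the series and not for each clutch. Of 13 marker genes of the egg, 12 were expressed and grip2a was not. The mean level of the 12 was 10.97 to 11.15 log2 units in the eggs of mother 2 and 10.80 to 10.92 in those of mother 4. Among them zp2l2 was not well above background in any egg of mother 4. The haemoglobin genes hbae1 and hbae3, markers of blood, were not called expressed. All 3 follicle cell markers were expressed, with a mean level of 8.53 to 8.89 in mother 2 and 8.60 to 8.80 in mother 4. The mean level of the 4 muscle markers was 7.38 to 7.79 in mother 2 and 7.73 to 8.06 in mother 4, and that of 2 epithelial markers, krt8 and cdh1, was 8.60 to 9.01 in mother 2 and 8.12 to 8.54 in mother 4. Of the markers outside the egg list, lhcgr and krt8 were called higher in mother 2 and none was called lower. Over all genes of the tables the share called was 12.1%. All other expressed markers outside the egg list had a lower mean in mother 2. Among these, cyp11a1 (-0.95), hsd3b1 (-0.64) and myom1b (-0.89) had egg ranges apart, while cdh1 (-0.40) did not. Lhcgr in mother 4 (6.27) and myom1b in mother 2 (6.28) were near background. The part of these markers in the results was not tested.

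The eggs within each of these 2 clutches were more alike than eggs of mother 2 and eggs of mother 4. Since the pair was chosen for its many differences, this was largely fixed in advance and says nothing of other clutches. The standard deviation of the log2 differences over all expressed transcripts was 0.54 to 0.68 for the 25 pairs of 1 egg of mother 2 and 1 egg of mother 4. It was 0.27 to 0.52 for the 10 pairs of eggs within mother 2, where only pairs with egg 3 exceeded 0.33, and 0.22 to 0.32 for the 10 pairs within mother 4. A median of 7.37% of the transcripts differed more than 2-fold in a pair between the clutches. The median was 0.89% within mother 2 and 0.51% within mother 4.

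A transcript was called where the adjusted p of limma between mother 2 and mother 4 was under 0.05 and the difference over 2-fold. By this rule 1360 of the 26917 expressed transcripts were called (5.05%), of which 611 were higher in mother 2 (2.27%) and 749 were lower (2.78%). In 1327 of the 1360 all 5 eggs of one mother lay above all 5 of the other. Such separated ranges were also common without a call, as they were found in 7139 transcripts (26.5%), with mother 2 higher in 3304 (12.3%) and lower in 3835 (14.2%). The calls were thus split almost evenly, with 44.9% higher and 55.1% lower in mother 2. In another scaling, median centring, the raw signal of each array was centred on its median over all 88754 probes, of which 26917 were expressed. Unlike the series table, this scaling does not bring the arrays to 1 distribution. With it the median difference over the expressed transcripts was -0.72, and the split became 3.25% higher and 96.7% lower.

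Large differences occurred in both directions. Among the called transcripts 100 were more than 4-fold higher in mother 2 and 112 more than 4-fold lower, and 7 and 9 differed by more than 16-fold in the same directions. The largest differences of all, 5.70 log2 units higher and 5.61 lower in mother 2, belonged to probes that the tables used here do not pair with a gene. The calls were spread over the range of levels, with 3.67%, 6.29%, 6.58% and 3.67% of transcripts called from the lowest to the highest of 4 equal groups by mean level.

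**Figure D1:**
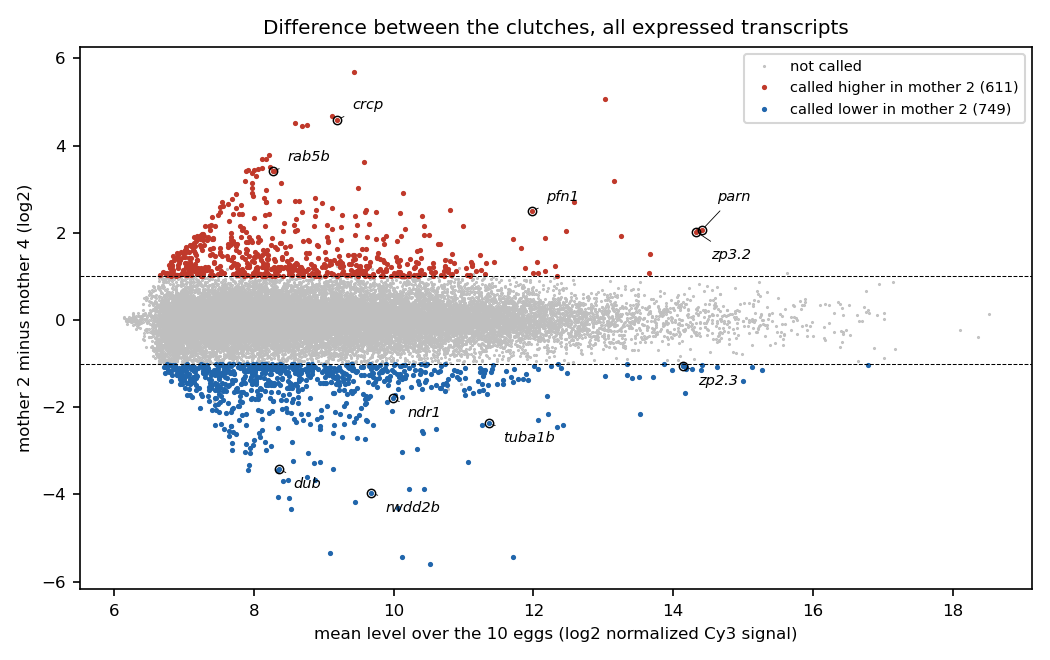
The difference between the clutches (mother 2 minus mother 4, log2, vertical axis) is plotted against the mean level over the 10 eggs (log2 normalized Cy3 signal, horizontal axis) for every expressed transcript, with the 611 called higher in mother 2 in red, the 749 called lower in blue and the dashed lines at a 2-fold difference. Called transcripts lie on both sides at nearly all levels, and the circled genes are described in the text.

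The arrays were printed on slides of 4, and 4 slides held 1 egg of each mother. Within these slides the egg of mother 2 minus the egg of mother 4 had the sign of the mean difference for 1359, 1356, 1350 and 1359 of the 1360 called transcripts. All 4 slides shared the sign in 1346 of them (99.0%). The 1360 were picked on these same eggs, so this share is a description of them and no independent support. Egg 2 of mother 2 and egg 5 of mother 4 had no counterpart on their slide. With slide as a block, 1371 transcripts were called.

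The reference channel of the same 10 arrays did not show these differences. Compared between the arrays of mother 2 and the arrays of mother 4, limma called 0 of the 26917 transcripts in the Cy5 signal (0.0%), and 1116 (4.15%) had an unadjusted p under 0.05. Of the 1360 transcripts called in the eggs, 73 (5.37%) had an unadjusted p under 0.05 in the reference and none differed there by more than 2-fold. Across those 1360 the standard deviation of the difference was 1.66 log2 units in Cy3 and 0.11 in Cy5.

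Names were available for part of the transcripts. The tables used here pair 3679 expressed probes with as many Ensembl genes, 1 probe each, and 445 of these genes were called (12.1%), 190 higher (5.16%) and 255 lower (6.93%) in mother 2. Of the 1673 genes in the study's table of genes with distinct levels between mothers, 413 were called (24.7%), but that table was selected on these same eggs and its share is not independent evidence. Of the other 2006 genes, 32 were called (1.6%). A symbol that is more than a clone name was available for 308 of the called genes, and in 307 of these the egg ranges were apart.

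The named genes with the largest excess in mother 2 included several that were near background in mother 4. Crcp (ENSDARG00000069373), which codes for a calcitonin gene-related peptide receptor component that is also a subunit of RNA polymerase III, lies at chr21:31207785-31215463 in the Zv9 assembly used by the study's tables. Its level was 11.52, 11.37, 11.31, 11.66 and 11.60 in eggs 1 to 5 of mother 2 and 6.89, 6.73, 6.76, 6.76 and 7.36 in eggs 1 to 5 of mother 4. The ranges were far apart, with a difference of 4.59 ± 0.13 log2 units (SE), or 24.2-fold.

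Pold3, an accessory subunit of the replicative DNA polymerase delta, was 11.3-fold higher in mother 2. Its eggs had 10.14, 9.61, 10.76, 9.35 and 10.08 in mother 2 and 6.39, 6.54, 6.30, 6.53 and 6.67 in mother 4, with 4 of 5 eggs of mother 4 well above background. The small GTPase gene rab5b, which acts on early endosomes, had 10.02, 9.78, 10.15, 9.91 and 10.01 in mother 2 and 6.69, 6.51, 6.52, 6.68 and 6.43 in mother 4. It was 10.6-fold higher in mother 2, as was akap17a, an anchoring protein of protein kinase A with a role in splicing. For all 3 genes the lowest egg of mother 2 was more than 2 log2 units above the highest egg of mother 4. None of the 3 genes passed the expression limit in any egg of mother 4, and the size of these folds depended on the scaling.

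Complement component c7b, part of the membrane attack complex, had 9.40, 9.59, 9.77, 9.79 and 9.83 in mother 2 and 6.41, 6.41, 6.34, 6.29 and 6.41 in mother 4. In mother 4 its signal was well above background in only 2 of 5 eggs. The lectin gene lman2la and the secreted synaptic protein gene cbln4 differed by 2.74 ± 0.14 and 2.70 ± 0.22 log2 units. In both, all 5 eggs of mother 4 were measured above background and were below all eggs of mother 2.

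Cog5, a subunit of the conserved oligomeric Golgi complex that tethers vesicles, was not well above background in any egg of mother 4. It averaged 8.96 ± 0.09 in mother 2 and 6.30 ± 0.07 in mother 4 (SD, n = 5 each), and was at least 6.12-fold higher in mother 2, taking the lowest signal measured above background on each array as the floor. The extracellular glycoprotein gene olfm1b was at least 5.55-fold higher by the same measure. Bco2a, which codes for an enzyme that cleaves carotenoids, averaged 9.03 ± 0.17 in mother 2 and 6.45 ± 0.03 in mother 4, where 3 of 5 eggs were above background. Btr18, of the bloodthirsty family of TRIM genes, averaged 10.39 ± 0.48 in mother 2 and 7.83 ± 0.32 in mother 4. These 11 were among the 12 named genes with the largest differences in this direction. Among genes with clone names, zgc:110224 was 7.5-fold higher in mother 2, with 3 of 5 eggs of mother 4 above background. Si:dkeyp-2e4.3 averaged 9.07 in mother 2 and 6.29 in mother 4, where 1 of 5 eggs was above background.

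In the opposite direction rwdd2b (ENSDARG00000055426, chr20:27006068-27016826), which codes for a protein with an RWD domain, differed most. It had 7.89, 7.85, 7.64, 7.48 and 7.62 in mother 2 and 11.78, 11.66, 11.54, 11.65 and 11.69 in mother 4. It was well above background in every egg of both clutches and 15.7-fold lower in mother 2. Paxillin a (pxna), an adaptor of focal adhesions, had 6.54, 6.66, 6.45, 6.56 and 6.69 in mother 2, against 10.14, 10.40, 10.18, 10.30 and 10.31 in mother 4. It was above background in 3 of 5 eggs of mother 2 and 12.8-fold lower there.

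Cecr1a, whose product is a secreted adenosine deaminase, had 6.87, 6.28, 6.98, 6.59 and 6.54 in mother 2 and 10.28, 10.32, 10.31, 10.43 and 10.31 in mother 4. Duboraya (dub), which is known in zebrafish for its role in Kupffer's vesicle and left-right asymmetry, had 6.87, 6.79, 6.48, 6.61 and 6.51 in mother 2 and 10.22, 9.90, 10.14, 10.05 and 10.05 in mother 4. The eggs of mother 4 were tightly grouped in both genes, and the eggs of mother 2 lay more than 3 log2 units below them. Their signal in mother 2 was well above background in 2 of 5 eggs for cecr1a and in 3 of 5 for dub.

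The cargo receptor gene tmed3, which acts between the endoplasmic reticulum and the Golgi, averaged 6.36 ± 0.14 in mother 2 and 9.38 ± 0.22 in mother 4, and no egg of mother 2 was well above background. It was at least 7.65-fold lower in mother 2. Gpr98, an adhesion receptor of sensory hair bundles, differed by -2.84 ± 0.12 log2 units, with 1 of 5 eggs of mother 2 above background. Slc1a3a, a glutamate transporter gene, is represented by 2 Ensembl genes (ENSDARG00000026218 and ENSDARG00000026248), whose differences were -2.56 ± 0.16 and -2.49 ± 0.16. The first was not well above background in any egg of mother 2 and was at least 5.83-fold lower there, and the second was above background in 1 of 5. Both carry the same symbol in the study's tables, so they may share signal, and the gene name table gives the second as SLC1A7. Kctd12b, of a family of potassium channel tetramerisation domain proteins, was at least 5.6-fold lower in mother 2.

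The last 3 of the 12 named genes most reduced in mother 2 were measured above background in all 10 eggs. The salt-inducible kinase gene sik2a averaged 9.37 ± 0.36 in mother 2 and 11.86 ± 0.26 in mother 4. H2afy, which codes for the large histone variant macroH2A, had 8.08, 8.36, 8.95, 8.56 and 8.54 in mother 2 and 10.97, 10.90, 10.98, 10.84 and 10.90 in mother 4, a 5.35-fold difference. Slc25a38a, a mitochondrial carrier needed for haem synthesis, was 5.34-fold lower. Among genes with clone names si:dkey-149f22.2 was at least 9.17-fold lower and zgc:113294 was 9.43-fold lower in mother 2, with zgc:113294 above background in 4 of 5 eggs of mother 2.

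**Figure D2:**
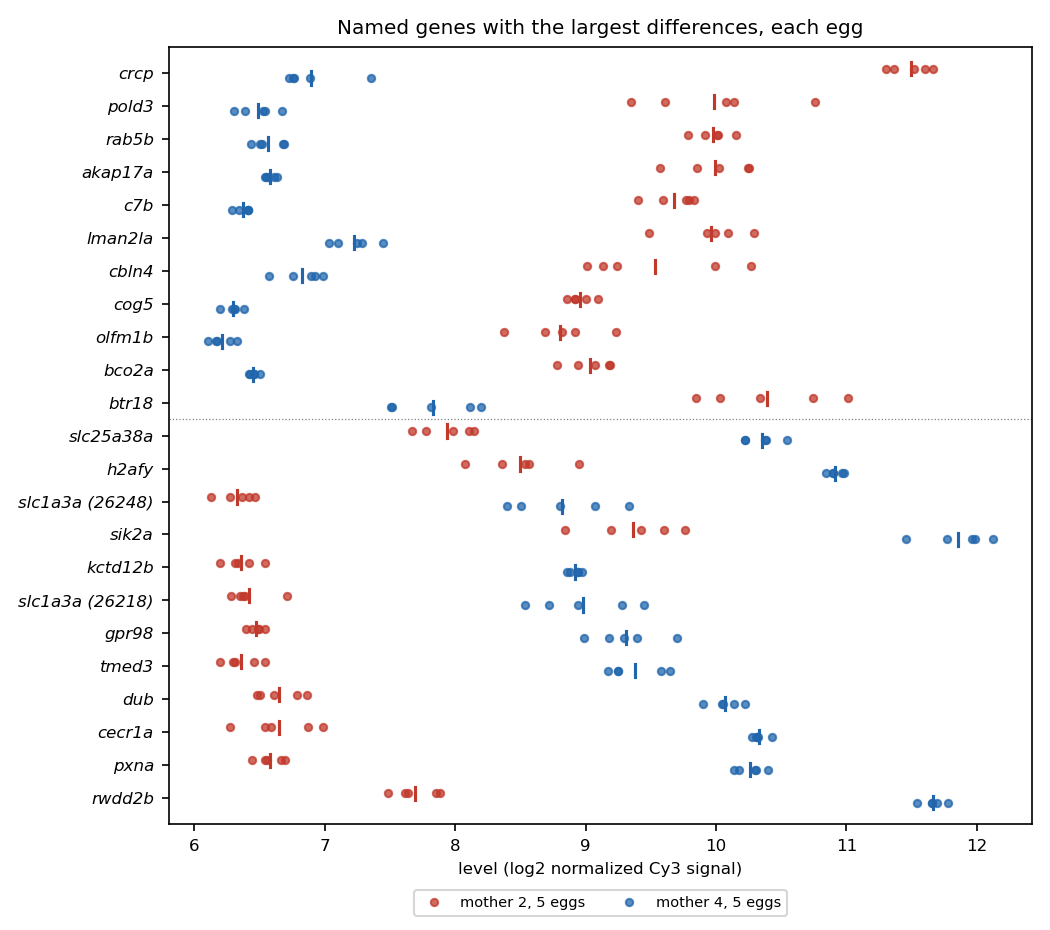
The level of each egg (log2 normalized Cy3 signal, horizontal axis) is shown for 11 of the 12 named genes with the largest excess in mother 2 (above the dotted line) and the 12 with the largest excess in mother 4 (below it), with mother 2 in red, mother 4 in blue and the mean as a vertical bar. The genes were chosen with egg ranges apart, so the clutches do not overlap in any of them. They run from crcp (24.2-fold) at the top to rwdd2b (15.7-fold) at the bottom.

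The egg envelope genes differed in both directions. Of 6 measured ZP genes, 3 were called higher and 2 lower in mother 2 (83.3%), where the share of called genes over all genes of the tables was 12.1%. Nothing is read from the shares of this and the following lists, since the calls were made on the eggs that chose the pair. All 6 belong to the table that the study selected on these eggs. Zp3.2 had 15.35, 15.32, 15.41, 15.43 and 15.21 in mother 2 and 13.65, 12.46, 13.64, 13.20 and 13.65 in mother 4, a 4.07-fold difference. Its probe is listed as matching 4 further transcript entries, which can be other records of the same gene. With median centring the list had 2 members called higher and 3 lower, and with the dye ratio or without egg 3 of mother 2 it had 2 called each way.

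Zp3a.1 had 9.03, 9.14, 9.03, 8.95 and 8.85 in mother 2 and 7.04, 7.26, 7.04, 7.19 and 7.35 in mother 4. Here mother 4 was the clutch that stood apart, since the eggs of mothers 1, 3 and 5 averaged 9.80, 9.49 and 9.57. Zpcx was 2.67-fold lower in mother 2, with a mean of 8.39 ± 0.11 in mother 2 and 9.81 ± 0.27 in mother 4, and zp2.3 was 2.08-fold lower, with 13.62 ± 0.25 in mother 2 and 14.67 ± 0.15 in mother 4. Zp2.3 was not called with the processed signal or without egg 5 of mother 2. The sixth gene, zp2l1, missed the 2-fold limit with a difference of -0.91, and its egg ranges were apart as well. Zp2l2 was not well above background in any egg of mother 4 and was at least 1.79-fold higher in mother 2.

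**Figure D3:**
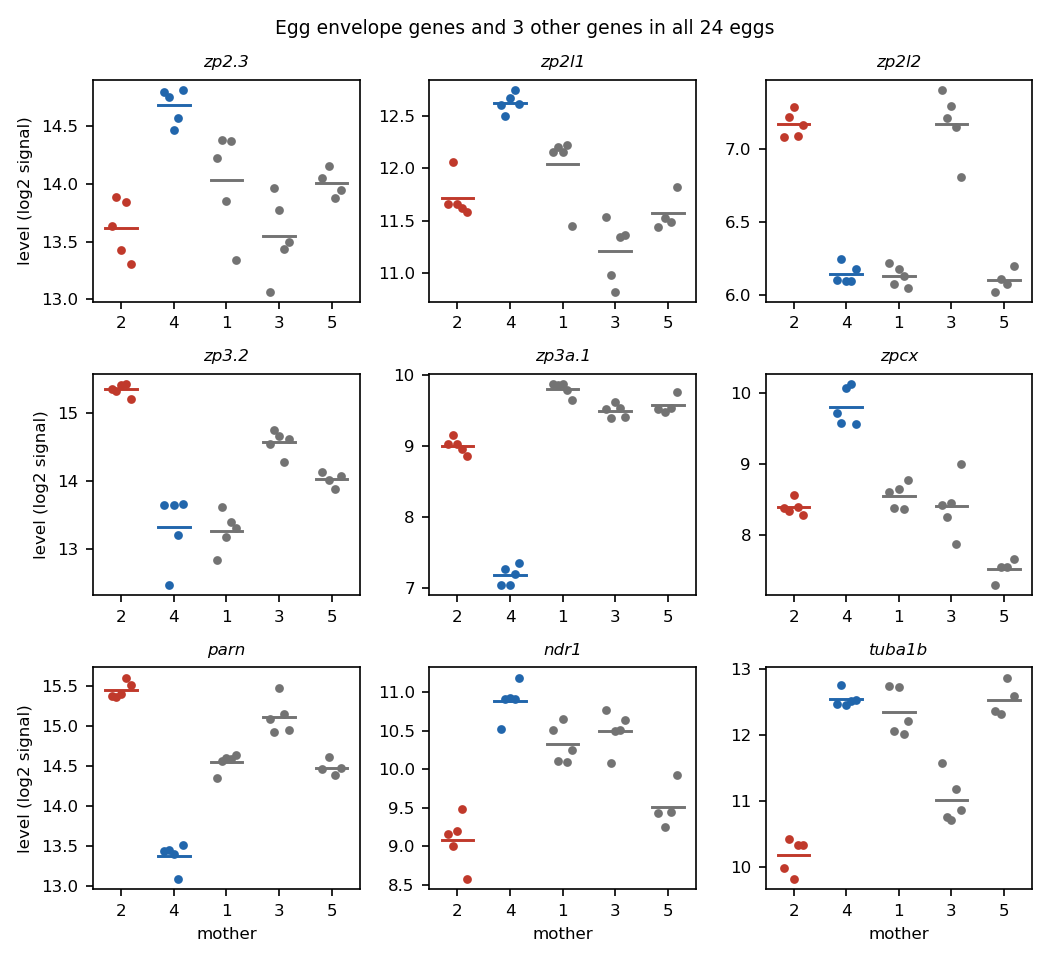
Levels (log2 normalized Cy3 signal, vertical axes, scaled per gene) of the 6 ZP genes and of parn, ndr1 and tuba1b are plotted for each egg of mothers 2, 4, 1, 3 and 5 (horizontal axes), with the mean of each mother as a line. Mother 2 and mother 4 do not overlap in any of the 9 genes, while the position of the other 3 mothers between or beyond them differs from gene to gene: in zp3a.1 they average 9.49 to 9.80, near the 9.0 of mother 2, and in tuba1b mothers 1 and 5 average 12.35 and 12.53, near the 12.55 of mother 4.

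Genes that store, shorten or extend messenger RNA tails included a strong difference in parn, the poly(A)-specific ribonuclease that shortens tails. Parn had 15.37, 15.36, 15.40, 15.60 and 15.51 in mother 2, against 13.44, 13.46, 13.40, 13.09 and 13.51 in mother 4, and was 4.19-fold higher in mother 2. Of the 30 measured genes of this kind 3 were called higher and 2 lower (16.7%, beside 12.1% of all genes of the tables), with a median difference of 0.11 log2 units beside -0.04 over all genes of the tables, although with median centring 1 was higher and 8 were lower. The others called higher were elavl1 (1.09 ± 0.12), an RNA-binding protein that stabilizes messages, and pde12 (1.04 ± 0.13), which trims the tails of mitochondrial RNA. Pde12 was not called without egg 5 of mother 2 or without egg 4 of mother 4. Nor was pde12 called with the ratio of the dyes, the quantile normalized scanner signal (0.9968) or median centring (0.0343). Tut1, a terminal uridylyltransferase, differed by -1.43 ± 0.11 and the decapping scavenger gene dcps by -1.04. The 4 subunit genes of the CCR4-NOT deadenylase in the list, cnot1, cnot2, cnot3b and cnot7, were not called, with differences of -0.66 to 0.19.

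Translation factors differed in a few members. Eif2s1a, the alpha subunit of the factor that brings the initiator tRNA, had 10.20, 9.76, 10.22, 9.40 and 9.90 in mother 2 and 11.69, 11.58, 11.35, 11.65 and 11.04 in mother 4. The cap-binding factor gene eif4ea averaged 8.0 ± 0.48 in mother 2 and 9.21 ± 0.11 in mother 4, and bzw2 differed by 1.22 ± 0.11. These 3 were all that were called among 35 factors (8.57%, beside 12.1% of all genes of the tables). With the processed signal 3 factors were higher and 2 lower, and with median centring 6 were lower. In the machinery they serve no gene was called. The table that the study selected on these eggs holds 3 of 67 cytosolic ribosome genes, 8 of 33 mitochondrial ribosome genes and 11 of 51 splicing genes. Outside that selection only 1.6% of genes were called, against 24.7% within it. The lack of calls is therefore not read as a trait of these lists. Of 67 proteins of the cytosolic ribosome 11 had egg ranges apart with mother 2 lower and 0 with mother 2 higher. Over all expressed transcripts these shares were 14.2% and 12.3%. The largest difference in the list was -0.63 ± 0.10, in rps3. None of 33 proteins of the mitochondrial ribosome and none of 51 splicing genes was called, with largest differences of 0.83 ± 0.09 in mrpl54 and 0.96 ± 0.14 in sf3a1, both of which were below 0 with median centring. Under that scaling 23, 9 and 13 genes of these 3 lists were called, all lower in mother 2.

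In the respiratory chain the called genes were a pair of complex I genes that went in opposite directions. They were 3.77% of 53 genes, beside 12.1% called over all genes of the tables. The median difference over the 53 was -0.00, and with median centring 1 gene was higher and 15 were lower. Ndufs8b was 4.49-fold lower in mother 2, with 6.93, 7.06, 6.76, 6.41 and 6.83 in mother 2 and 8.92, 8.82, 9.04, 9.01 and 9.03 in mother 4, and 4 of 5 eggs of mother 2 were above background. Ndufb11 was not well above background in any egg of mother 4 and was at least 3.39-fold higher in mother 2, where it averaged 8.09 ± 0.39. Among mothers 1, 3 and 5 ndufb11 also differed, with means of 6.24, 9.15 and 6.31 (limma F-test, adjusted p = 3.25e-12).

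Genes of the cell cycle and of DNA replication differed in single members in each direction. Geminin (gmnn), which blocks a second round of replication, had 11.23, 10.81, 11.07, 10.55 and 10.48 in mother 2 and 8.40, 8.76, 8.05, 8.32 and 8.26 in mother 4, a 5.53-fold difference. Cyclin D2a (ccnd2a) differed by 1.5 ± 0.16, the kinetochore gene nuf2 by -1.37 ± 0.10 and the augmin subunit gene haus5 by -1.19 ± 0.09. In all, 2 of 43 cell cycle genes were called higher and 2 lower (9.3%, beside 12.1% of all genes of the tables), and 1 was higher and 13 lower with median centring. Of 46 replication and repair genes 6 were called, where 12.1% of all genes of the tables were called. Of these 6, 5 belong to the table that the study selected on these eggs. Called higher were 2, pold3 and the clamp loader gene dscc1 (1.34 ± 0.11), and 4 were lower. Those lower were alkbh4 (-1.35 ± 0.09), xpc (-1.20 ± 0.09), helq (-1.15) and alkbh3 (-1.12), of which xpc recognizes bulky DNA damage and was above background in 3 of 5 eggs of mother 2. With median centring 1 gene of this list was higher and 15 were lower. Sycp1, of the synaptonemal complex that joins meiotic chromosomes, was the 1 called among 11 germ cell genes (9.09%, beside 12.1% of all genes of the tables). Sycp1 differed by 1.84 ± 0.12, with 2 of 5 eggs of mother 4 above background. Without egg 3 of mother 2 and with the dye ratio 1 was called each way, with the processed signal 2 were higher and 1 lower, and with median centring 1 was higher and 3 were lower.

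Among 66 chromatin genes 1 was called higher and 6 were called lower in mother 2 (10.6%, beside 12.1% of all genes of the tables). The numbers higher and lower were 3 and 8 with the processed signal, 0 and 6 with the dye ratio and 0 and 22 with median centring. Under median centring the expressed transcripts as a whole shifted to the lower side. The median difference was -0.07. Besides h2afy, the remodeller gene chd1l had 8.36, 7.98, 8.56, 8.32 and 8.34 in mother 2 and 10.13, 10.08, 9.99, 9.75 and 9.99 in mother 4. The DNA methyltransferase gene dnmt3ab differed by -1.29 ± 0.09, with 1 of 5 eggs of mother 2 above background, and the histone demethylase gene kdm7ab by -1.16 ± 0.12. With the dye ratio dnmt3ab differed by -0.97 and was not called. Chd2 and prmt2 differed by -1.08 each. The one called higher was h1m, the maternal linker histone, which averaged 10.89 in mother 2 and 9.85 in mother 4. Without egg 3 of mother 2 no gene of the list was called higher and 7 were lower. All 7 genes belong to the table that the study selected on these eggs.

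Among the signals that pattern the embryo, ndr1 (squint) codes for a Nodal ligand whose maternal RNA is known in zebrafish. Its level was 9.16, 9.0, 9.20, 9.49 and 8.58 in mother 2 and 10.52, 10.90, 10.93, 10.90 and 11.19 in mother 4, a 3.48-fold difference, and the ranges lay about 1 log2 unit apart. Pdgfaa, a growth factor ligand, differed by -1.12 ± 0.17, with 3 of 5 eggs of mother 2 above background. The receptor bmpr2a, the Wnt agonist rspo1 and the planar polarity gene prickle2a differed by -1.04, -1.06 and -1.08.

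The inhibitor of FGF signalling spry2 was the gene of this group with the largest excess in mother 2. It had 8.63, 8.16, 9.39, 8.79 and 8.92 in mother 2 and 6.46, 6.52, 6.55, 6.49 and 6.53 in mother 4, where 4 of 5 eggs were above background. The coactivator gene cited2 averaged 11.48 ± 0.18 in mother 2 and 9.53 ± 0.17 in mother 4. With these, 2 of 36 patterning genes were called higher and 5 lower (19.4%, beside 12.1% of all genes of the tables), at a median difference of -0.03. With the processed signal 3 were higher and 10 lower, and with median centring 1 was higher and 11 were lower.

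Transcription factor genes held 13 calls among 76 (17.1%, beside 12.1% of all genes of the tables), with 8 higher and 5 lower in mother 2 and a median difference of 0.15. With the processed signal 15 were higher and 13 lower, and with median centring 2 were higher and 17 lower. The inhibitor of differentiation id1 was 3.88-fold higher in mother 2, with 10.53, 10.59, 10.60, 9.92 and 10.52 in mother 2 and 8.46, 8.22, 8.54, 8.63 and 8.53 in mother 4. Tfap2a, a regulator of neural crest and ectoderm, varied more within the clutches. It had 8.12, 9.14, 9.84, 8.21 and 9.06 in mother 2 and 6.42, 6.5, 7.69, 6.58 and 6.43 in mother 4, and its difference within a slide ran from 0.43 to 3.41. Sox5 was not well above background in any egg of mother 2 and was at least 2.92-fold lower there, and the homeobox gene vsx1 differed by -1.69 ± 0.20, with 1 of 5 eggs of mother 2 above background. All 13 genes belong to the table that the study selected on these eggs.

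Cytoskeleton genes included a pair of close relatives with opposite differences. The alpha tubulin gene tuba1b had 9.98, 10.42, 9.82, 10.34 and 10.33 in mother 2 and 12.47, 12.76, 12.45, 12.52 and 12.53 in mother 4. Its neighbour tuba1c, also an alpha tubulin gene, had 8.59, 8.16, 8.63, 8.08 and 7.94 in mother 2 and 6.68, 6.82, 6.57, 6.89 and 6.87 in mother 4. Tuba1b was thus 5.16-fold lower and tuba1c 2.86-fold higher in mother 2, and the 2 genes lie at chr23:35614754-35617716 and chr23:35591854-35595371. Profilin (pfn1), which binds actin monomers, was 5.64-fold higher, with 13.31, 13.43, 12.49, 13.44 and 13.45 in mother 2 and 10.78, 10.43, 10.83, 10.64 and 10.97 in mother 4. With krt8 called higher (1.38), and pxna and stmn4 (-1.44) lower, 3 of 54 genes were called in each direction. These were 11.1% in all, beside 12.1% of all genes of the tables, and with median centring 1 was higher and 14 were lower.

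Of 67 vesicle traffic genes 5 were called higher and 1 lower in mother 2 (8.96%, beside 12.1% of all genes of the tables), while with median centring 3 were higher and 17 lower. The median difference over the list was -0.07. Another Golgi complex subunit gene, cog6, had 10.40, 10.61, 9.95, 10.41 and 10.16 in mother 2 and 8.17, 8.02, 8.34, 7.97 and 8.36 in mother 4. Napaa, which recycles SNARE complexes, differed by 1.57 and the coat subunit gene copa by 1.01. The copa value was so close to the limit that the call was lost without any 1 of 5 eggs (eggs 1, 2 and 4 of mother 2 and eggs 2 and 4 of mother 4). The copa call was also lost with slide as a block, the dye ratio, median centring, the quantile normalized scanner signal and background correction before normalization. The GTPase gene rab42b was lower, at -1.85 ± 0.10, with 1 of 5 eggs of mother 2 above background.

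Glycosylation genes had 2 calls among 47 (4.26%, beside 12.1% of all genes of the tables), both higher in mother 2. With median centring 1 was higher and 10 were lower. Pomt1, which adds mannose to proteins, was not well above background in any egg of mother 4 and was at least 3.08-fold higher. Ddost, a subunit of the oligosaccharyltransferase, averaged 11.18 ± 0.29 in mother 2 and 9.58 ± 0.57 in mother 4, with the ranges apart. Of 45 membrane transporters 4 were called higher and 6 lower (22.2%, beside 12.1% of all genes of the tables). By the dye ratio 2 were higher and 6 lower, and by median centring 1 was higher and 13 lower. All 10 called transporters belong to the table that the study selected on these eggs. Slc5a5, the sodium iodide symporter, averaged 8.62 ± 0.12 in mother 2 and 6.73 ± 0.14 in mother 4. In the ubiquitin and proteasome list, rnf168 (1.66 ± 0.13), a ligase of the DNA damage response, was called higher. Psmb11 (-1.75 ± 0.21, above background in 3 of 5 eggs of mother 2) and fbxl8 (-1.17 ± 0.13) were called lower. The list held 67 genes (4.48% called, beside 12.1% of all genes of the tables). With the processed signal 3 of these genes were called each way and with median centring 20 were lower.

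Immune genes differed in both directions. Of 29 genes, 3 were called higher and 3 lower in mother 2 (20.7%, beside 12.1% of all genes of the tables), and 1 was higher and 9 lower with median centring. Besides c7b, the signal adaptor gene traf6 had 9.48, 9.74, 8.99, 9.36 and 9.32 in mother 2 and 7.48, 7.81, 7.48, 7.71 and 7.87 in mother 4. Ifnlr1, a cytokine receptor gene, had 7.12, 7.03, 7.23, 6.84 and 7.05 in mother 2 and 9.39, 8.89, 9.35, 9.34 and 8.80 in mother 4. Stat3, which carries cytokine signals to the nucleus, differed by -1.63 ± 0.16 and was one of the 32 called genes outside the selected table. The remaining calls were il4r.1 (1.04), a cytokine receptor gene, and tap1 (-1.23), which carries peptides for antigen presentation. Of 10 TRIM genes from families expanded in fish, btr18 was called higher and btr16 lower (-1.13 ± 0.12), where 12.1% of all genes of the tables were called. With median centring 1 was higher and 5 were lower. Both called genes, and 9 of the 10 measured, belong to the table that the study selected on these eggs. The btr16 probe is listed as matching 8 further transcript entries and is described as member 26 of the family, so its identity is uncertain.

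None of the genes of sterol and steroid synthesis was called, although 1 was called lower without egg 3 of mother 2, 2 with the processed signal and 7 with median centring. Of 15 genes 11 had a lower mean in mother 2. In 7 all eggs of mother 2 lay below all eggs of mother 4, against 2 with the reverse order. Over all expressed transcripts these shares were 14.2% and 12.3%. Of the 15 genes, 11 belong to the table that the study selected on these eggs. The median difference was -0.41, beside -0.04 over all genes of the tables. Cyp11a1, the enzyme that starts steroid synthesis, had 10.80, 10.69, 10.98, 10.26 and 10.83 in mother 2 and 11.88, 11.70, 11.30, 11.83 and 11.58 in mother 4. Cyp11a1 and hsd3b1 (-0.64) also stand in the list of follicle cell markers, in which lhcgr differed by 1.44 in the other direction. Their part in the result was not tested.

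**Figure D4:**
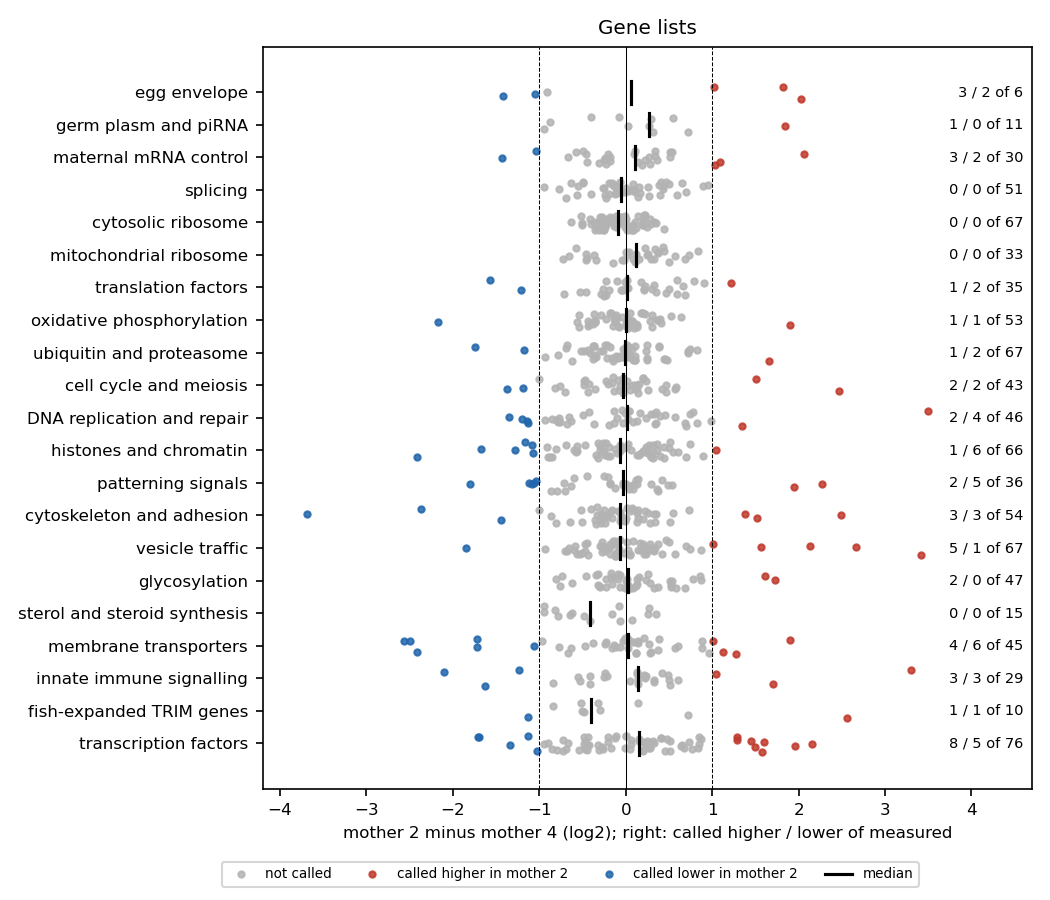
Each point is 1 gene of a list, placed by its difference between the clutches (mother 2 minus mother 4, log2, horizontal axis) and coloured where it was called (red higher in mother 2, blue lower), with a black bar at the median of the list and, at the right, the number called higher and lower out of the genes measured. Most lists are centred near 0 with a few called genes on each side, and no gene of the splicing, ribosome and sterol lists passes the dashed 2-fold lines with a call.

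Neighbouring genes were examined where the tables gave positions, which they did for 371 of the 445 called genes. There were 52 pairs of called genes within 100 kb of each other, of which 35 went in the same direction and 17 in opposite directions. Without the 13 pairs whose genes overlap or share a symbol, or whose probes are listed with a common further match, 22 of 39 pairs went in the same direction. Tpst1l, which lies 3226 bases from crcp, differed by 1.24, and an unnamed gene that the gene name table gives as SLC16A1, 3722 bases from sycp1, differed by 1.75. Hadh and sgms2 (-1.68 and -1.40), ptk6b and tpd52l2b (-1.48 and -1.55) and hexa and stoml1 (-1.16 and -2.27) were lower together in mother 2. Hexa was not called with the dye ratio (-0.85), and its Cy5 reference signal differed by -0.47. A group of 4 clone-named genes on chromosome 10 (zgc:136254, si:ch211-251f6.3, si:ch211-251f6.6 and si:ch211-251f6.7) differed by -1.07 to -1.15, and their probes are each listed as matching 9 further transcript entries, so these 4 values may not be separate measurements.

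The 17 pairs with opposite directions included tuba1b and tuba1c, and also c7b and ndr1, which lie 95495 bases apart on chromosome 21. Of the 2772 genes with a position 371 were called. Chromosome 21 held the largest number, 25 of the 120 measured there (20.8%, 13 higher and 12 lower), but not the largest share. Called genes were found on each of the 25 numbered chromosomes, from 6.72% of the measured genes on chromosome 2 to 21.8% on chromosome 12.

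The eggs of mothers 1, 3 and 5 were used to ask whether the same transcripts also differed among other clutches. They took no part in the calls between mothers 2 and 4, but entered the ranking that chose the pair. The moderated F-test of limma over these 14 eggs called 10105 of the 26917 expressed transcripts (37.5%) at an adjusted p under 0.05. Of the 1360 transcripts called between mothers 2 and 4, 1027 (75.5%) were among them, 487 of the 611 higher in mother 2 (79.7%) and 540 of the 749 lower (72.1%). Of the transcripts not called between mothers 2 and 4, 35.5% differed among the other mothers. With slide as a block the share was 72.2% of the called transcripts, beside 32.6% of all. With median centring only 429 transcripts differed among these mothers, 191 of them among the called.

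Single genes illustrate both outcomes. Pxna had means of 10.08, 6.62 and 10.32 in mothers 1, 3 and 5 (limma F-test, adjusted p = 1.85e-12), so that mother 3 was as low as mother 2. Crcp had 7.29, 10.74 and 9.93 (adjusted p = 5.88e-11), with mother 1 near the level of mother 4. By comparison cbln4 had 7.04, 6.91 and 6.64 (adjusted p = 0.264), all near mother 4, and kctd12b had 8.64, 8.61 and 8.86 (adjusted p = 0.181), also all near mother 4. Cbln4 passed the expression limit in 5 of 5 eggs of mother 2 but 1 of 5 of mother 4. Its other 14 eggs lay at 6.43 to 7.48, near that limit. At such low levels the F-test could hardly show a difference, so nothing is read from it for cbln4. In chd1l the 3 means were 9.58, 9.73 and 9.67 (adjusted p = 0.689) and again close to the 9.99 of mother 4 rather than the 8.31 of mother 2.

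The position of the other 14 eggs between the clutches depended on the scaling. For 872 of the 1360 called transcripts (64.1%) their median was nearer to the mean of mother 4 than to that of mother 2, compared with 52.8% of all expressed transcripts. The number was 886 with the processed signal, 849 with the dye ratio and 693 with median centring. All 14 eggs were on the side of mother 4 in 184 called transcripts and all 14 were on the side of mother 2 in 96. In the other 1080 the 14 eggs were divided. Over all 26917 expressed transcripts these 3 numbers were 1004, 806 and 25107. Of the 3 mothers, the mean of mother 3 was on the side of mother 2 in 836 called transcripts, that of mother 1 in 461 and that of mother 5 in 371. Over all 26917 expressed transcripts it was so in 14045 for mother 3, 13615 for mother 1 and 11426 for mother 5. Rwdd2b, h2afy, dub and tmed3 had all 14 eggs on the side of mother 4, and zp3a.1 and zpcx had all 14 on the side of mother 2.

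**Figure D5:**
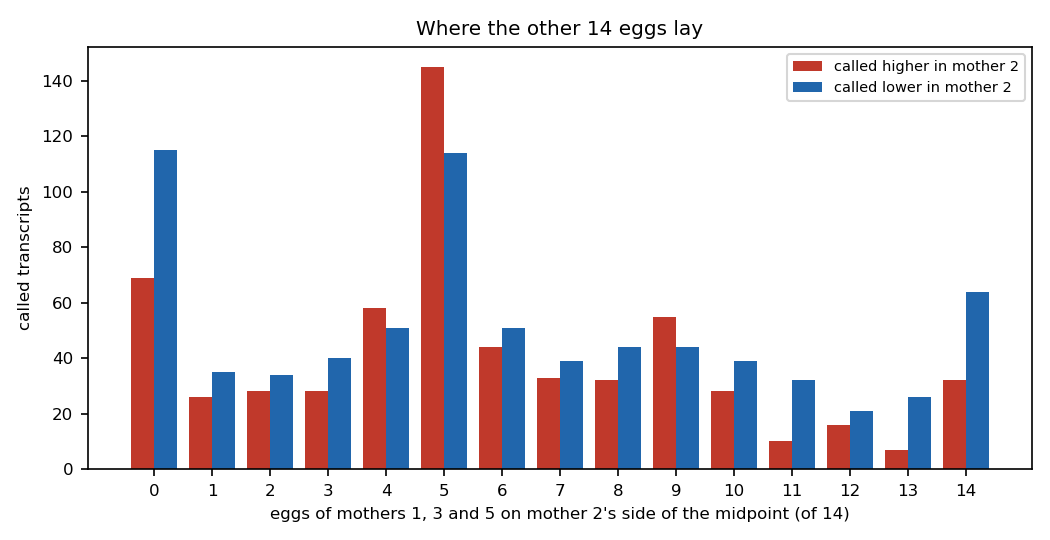
The number of called transcripts (vertical axis) is given by how many of the 14 eggs of mothers 1, 3 and 5 lay on mother 2's side of the midpoint between the means of mothers 2 and 4 (horizontal axis), with transcripts called higher in mother 2 in red and lower in blue. The highest bars are at 5 eggs (145 and 114 transcripts) and at 0 eggs (69 and 115).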

How the data were processed

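The authors hybridized amplified RNA of single eggs (Cy3) and a pooled egg reference (Cy5) to 24 Agilent arrays, read with Agilent Feature Extraction 10.7.3.1 per the submitters' notes. The deposited series table holds log2 Cy3 values that the authors had quantile normalized between arrays, and was used for all main values. The deposited scanner files hold the median and processed intensity of each spot, used for the reference channel and the other scalings. Of the spots, 88754 probes of the main design entered, each named gene being read by 1 of them, and no spot was saturated. Expression was called by the rule in the methods (probability over 0.95 on at least 4 arrays), implemented again here. This left 26917 transcripts, fewer than the paper reports. The 194 genes that the study removed as already polyadenylated were not taken out of these transcripts, so the counts of called transcripts may include them. None of the 194 was among the genes paired with a probe here. Arrays give no counts, so their number limits the precision, and eggs of 1 clutch measure only the spread within that clutch.

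Mother 2 minus mother 4 was fitted on the 10 eggs with limma 3.58.1 (R 4.3.3, Benjamini-Hochberg at 0.05, fold over 2), the other 3 mothers with its moderated F-test, and row variances were taken with matrixStats 1.5.0. The fits were tested on simulated data. Summaries used pandas 2.3.3 and numpy 2.4.6 under Python 3.11.15, and matplotlib 3.10.9 drew the figures. A fold against a clutch with no egg well above background is a lower bound against the lowest signal above background of each array. A level was never set against another probe's.

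Names and Zv9 positions come from the parts held of the study's supplementary tables. The text names the 12 named genes with the largest difference each way with egg ranges apart, the 2 largest clone-named ones, up to 4 called members of each of 21 gene lists and called neighbours within 100 kb. Of the 12 genes higher in mother 2, 1 is not reported here. Other members of a list were named after their values were seen, as were those chosen as examples from the other mothers. The pair, the members and the lists were chosen with earlier results of these data known. Ribosomal S6 kinases and slc7a6os were taken out of 2 lists after the values were seen. The alternatives were other scalings, samples, blocks, filters and fold limits, and fits without 1 egg each. The counts of list members and the position of the other eggs under other scalings, the lists without egg 3 of mother 2, and the neighbours without overlapping or shared genes, were added after seeing the data.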

Additional observations from a re-analysis of the deposited data

Results flagged for a closer look

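In 79 genes and the mean raw signal, each of the 2 clutches was searched for 1 egg set apart from the other 4. By chance about 1 in 20 such groups of 5 would show one, and of the 160 groups 11 did. None of these eggs crossed into the range of the other clutch, but the genes were picked for their difference between the clutches. This was therefore largely fixed in advance. In the eggs of mother 2, egg 3 had the lowest level of pfn1 (12.49, with the next egg at 13.31) and the highest of kdm7ab (8.40, next 8.03). Egg 4 had the lowest level of id1 (9.92, next 10.52), and egg 2 the highest of slc1a3a (6.71, next 6.39, ENSDARG00000026218). In the eggs of mother 4, egg 3 had the highest level of tfap2a (7.69, next 6.58) and the lowest of pomt1 (6.16, next 6.23). Egg 2 had the lowest level of ddost (8.59, next 9.66) and the highest of tuba1b (12.76, next 12.53). Egg 5 had the highest level of crcp (7.36, next 6.89) and the lowest of vsx1 (7.19, next 8.11), and egg 4 the lowest of parn (13.09, next 13.40).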

How the results depend on the processing

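The count of 1360 transcripts called between mothers 2 and 4 became 3354 with the processed signal scaled to its 75th percentile, 5225 with median centring, 670 among the 16699 transcripts expressed on all 24 arrays, 10482 with no minimum fold and 212 with a fold over 4. Leaving out 1 egg at a time gave 1316 to 1631 calls, the most without egg 3 of mother 2. Separated egg ranges became 2276 with median centring, 289 with mother 2 higher and 1987 lower, and were 7521 to 10132 with 1 egg left out. The 10105 transcripts that differed among mothers 1, 3 and 5 became 6217 with the ratio of Cy3 to Cy5 and 429 with median centring, and were 8561 to 11714 with 1 egg left out. The cause of the changes with scaling was not tested, while the filter and the fold limits changed the counts by construction. Among 124 single genes the direction turned in 2, both with median centring, to -0.0335 in sf3a1 and -0.155 in mrpl54, neither of which was called. Median centring also ended 18 calls and the dye ratio 9.

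Egg numbers are shared between the mothers. The deviations of same-numbered eggs of mothers 2 and 4 from their clutch means had correlations of -0.51 to 0.13. Those of differently numbered eggs ran from -0.23 to 0.47. An equal number therefore did not mark eggs that deviated in the same way, although some eggs of the 2 clutches had related deviations, whose cause was not tested. With the egg number as a replicate block 1353 transcripts were called between mothers 2 and 4, and 10457 differed among the others. Signals near background limit the lower side of a fold, and 126 called transcripts were not well above background in any egg of one mother. Folds of other dim genes also depended on the scaling. Crcp, rab5b and tuba1c passed the expression limit in 1, 0 and 0 of 5 eggs of mother 4. Their differences of 4.59, 3.41 and 1.52 became 6.14, 5.87 and 2.80 with the processed signal and 3.78, 2.77 and 1.0 with median centring. Pold3 and akap17a passed the expression limit in 0 of 5 eggs of mother 4. The differences of pold3 and akap17a were larger with the processed signal (6.42 and 5.61) and smaller with median centring (2.9 and 2.76).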
